A study of Talaromyces pinophilus with 6 samples.

Results

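Of the 169 genes with a transcription factor entry in the 1998 rows at hand of the study's table of genes called as differing between the 2 strains, 71 had no zinc cluster in that entry and are described here. The table reached gene *TP06007*, so genes with higher numbers were not analysed here. No entry spelled out Zn2Cys6, and the 96 entries with the InterPro number IPR001138, which is that of the fungal Zn2Cys6 binuclear cluster, were taken as the zinc cluster and set aside. Of the other 73, *TP00083*, left out by name, and 1 ribosomal protein gene were not kept. The table was made by the study from the same comparison of the same libraries, so the size and direction of change below describe genes already chosen for changing, and the calls against a threshold given below are made on the values that chose the genes. They are a description and no independent test of any gene.

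RNA was sequenced from Δ*TP05746*, a *Talaromyces pinophilus* mutant without the zinc cluster gene *TP05746*, and from its parent Δ*TpKu70*, with 3 libraries of each strain. Both strains lack *TpKu70*, a gene of DNA end joining whose loss makes targeted deletion easier, and both descend from strain 1-95. Mycelium of both was grown on glucose and then kept for 12 h on 1% (w/v) soluble corn starch. Library totals were 4091718 to 4190623 expected counts in Δ*TP05746* and 4600785 to 4696455 in Δ*TpKu70*, where expected counts are read numbers that RSEM estimates for each gene. *TP05746* was not listed, and so read as 0, in all 3 mutant libraries, against 135, 42 and 28 counts in Δ*TpKu70*, which put it at least 33.7-fold lower against a floor of 3 counts per library, or 19.9-fold without Δ*TpKu70* replicate 1. Neither the labels nor the methods state if replicate libraries were grown as separate cultures, so the spread between them may be technical. Each library is bulk mycelium, so fewer cells with a transcript and less of it per cell cannot be told apart.

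Transcription factors bind short DNA motifs through a small number of protein folds, and the fold is what annotation by domain recognises. Filamentous fungi use far more zinc cluster proteins than other eukaryotes, and beside them stand C2H2 zinc fingers, a fold that includes the carbon catabolite repressor CreA of *Aspergillus*, and bZIP proteins, which bind as dimers and take part in responses to stress and to amino acid, sulphur or nutrient supply. Other fungal regulators carry homeodomain, Myb, GATA or APSES domains, among them the nitrogen regulator AreA (GATA) and the developmental regulator StuA (APSES) of *Aspergillus*. None of the 71 genes carries such a gene name in the table, and none was matched to those regulators here.

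The entries were wider than the name transcription factor. By domain and annotation the 71 genes were placed in 8 groups: 10 C2H2 genes, 6 bZIP genes, 9 with homeodomain, Myb, GATA or APSES domains, 5 uncharacterised winged helix genes, 7 of chromatin and general transcription, 13 whose annotation names an enzyme or another known protein, 6 related to transposons or with a CCHC finger, and 15 with only the fungal transcription factor domain IPR007219. That last domain usually stands beside a zinc cluster, and 2 of the 15 (*TP00987* and *TP01882*) are annotated as C6 proteins. Whether others of the 15 have a zinc cluster that the annotation missed was not tested. They are kept as their own group, and counts are given without them too.

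Of the 71 genes, 61 were listed in at least 1 library and 10 in none. Of all 1998 rows at hand, 217 genes that the study called as differing were likewise listed in no library. The β-tubulin gene *TP10751* was listed only in Δ*TpKu70* replicate 2, at an FPKM of 1.61. Whether *TP10751* was transcribed in the libraries that do not list it was not tested. A gene not listed was read as 0 here, and the zeros and the folds against them below hold only as far as that reading does. The unlisted genes were 3 of the transposon group, 2 each of the enzyme, chromatin and fungal domain groups, and *TP02155* of the homeodomain group. The filter on low values asked for 3 or more libraries with an FPKM (the deposited level per gene length) of 1 or more, and 54 genes met it. In edgeR's fit over the 8522 genes that passed this filter, 18 of the 54 were higher and 28 lower in Δ*TP05746* past the threshold of an adjusted p of at most 0.05 and a log2 fold change of at least 1 in size, and 8 were past it in neither direction. Over all genes tested, 18.2% were higher and 20.5% lower, or 38.7% in either direction. Of the 1542 genes tested from all rows at hand, chosen in the same way, 89.2% were past the threshold. Because the 54 genes were chosen from this comparison, their counts say nothing beyond that choice. When any 1 Δ*TP05746* library was left out, 9 were higher, since 5 of the 18 were then below the filter and 4 were no longer past the threshold, and 22 to 24 of the 28 lower genes stayed so. Without the genes that carry only the fungal domain, 18 were higher and 18 lower of 44. The median log2 fold change (Δ*TP05746* over Δ*TpKu70*) was -1.21 over the 54 genes and 0.48 without the fungal domain group. It was -0.96 over the tested genes of all rows at hand, and 0.03 over all genes tested.

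**Figure D1:**
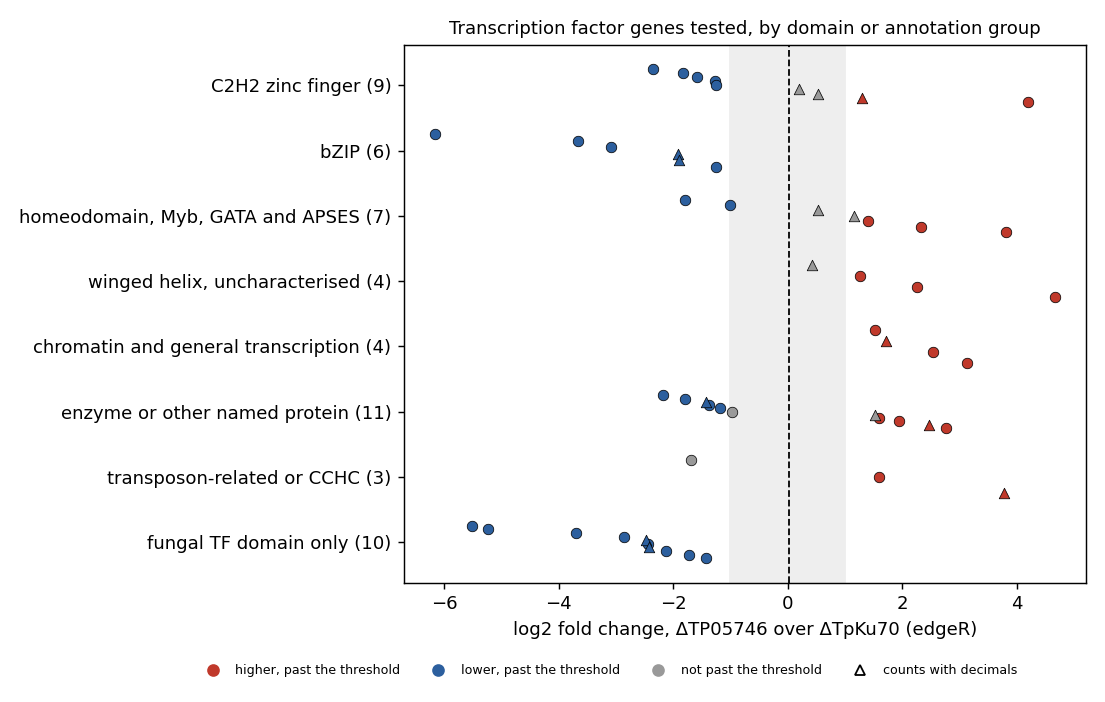
Log2 fold change of the 54 genes tested, Δ*TP05746* over Δ*TpKu70*, from edgeR, with 1 mark per gene and 1 row per group (number tested in brackets). Red marks were higher and blue marks lower past the threshold, grey marks were not past it, triangles are genes with decimals in their counts, the dashed line is the median of all genes (0.03), and the shaded band is a log2 fold change under 1 in size. All 6 bZIP genes and all 10 fungal domain genes lie left of the band, and all 4 chromatin and general transcription genes lie right of it.

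How many genes are called depends on how the libraries are scaled. The main scaling, TMM, gave factors of 1.31 to 1.37 to the Δ*TP05746* libraries and 0.667 to 0.877 to the Δ*TpKu70* libraries. Scaling by library totals instead moves the median over all genes tested to 0.85 on the log2 scale, and the 54 genes are then split into 23 higher and 14 lower, with a median of -0.35. No tested gene of the 54 turned its direction under library totals or the other scalings and tools run. Levels below are CPM, a gene's counts scaled to a common TMM-adjusted library size, which compare a gene between libraries. FPKM is used where genes are compared with each other.

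The 6 bZIP genes were all listed, all tested and all lower past the threshold in Δ*TP05746*, with a median log2 fold change of -2.50. In each of the 6, all 3 Δ*TP05746* libraries were below all 3 Δ*TpKu70* libraries, and Δ*TpKu70* replicate 1 lay between the Δ*TP05746* libraries and the other Δ*TpKu70* libraries. *TP03347*, the bZIP gene with the highest FPKM in both strains (77.1 in Δ*TP05746*, 173 in Δ*TpKu70*), had 130, 157 and 157 CPM in Δ*TP05746*, against 428, 643 and 619 CPM in Δ*TpKu70* (log2 fold change -1.92). *TP01007* had 53.9, 48.8 and 56.2 CPM in Δ*TP05746*, against 153, 213 and 221 CPM in Δ*TpKu70* (-1.89). The counts of both genes hold decimals, which RSEM writes where it shares reads between gene models, so their levels are less certain.

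The lowest fold change among the bZIP genes, and among all 54, was that of *TP01512*. It had 3, 1 and 1 counts in the Δ*TP05746* libraries, against 22, 82 and 126 counts in the Δ*TpKu70* libraries, a log2 fold change of -6.16. The spread within Δ*TpKu70* is wide here, with replicate 1 at 5.42 CPM and the other 2 at 24.4 and 41.2 CPM, and without any 1 of the 3 Δ*TpKu70* libraries the gene no longer reaches the filter. With single Δ*TP05746* libraries left out, its log2 fold change was between -6.81 and -5.86. *TP04298*, which joins a bZIP domain to ankyrin repeats, a fold that mediates contacts between proteins, had 2.24, 3.15 and 2.17 CPM in Δ*TP05746*, against 25.1, 38.7 and 34 CPM in Δ*TpKu70* (-3.67). The neighbouring pair *TP04779* and *TP04780*, by gene number, holds a C2H2 and a bZIP gene. The bZIP gene *TP04780* had 6.72, 9.28 and 10.7 CPM in Δ*TP05746*, against 33.8, 101 and 92.1 CPM in Δ*TpKu70* (-3.08). The C2H2 gene *TP04779* missed the filter with 1, 1 and 4 counts in Δ*TP05746*, against 36, 244 and 203 counts in Δ*TpKu70*. In both genes of the pair replicate 1 of Δ*TpKu70* was the lowest of its strain, and the strains did not overlap.

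The bZIP gene nearest to the threshold was *TP05918*, with 99.7, 93.0 and 91.0 CPM in Δ*TP05746*, against 132, 251 and 293 CPM in Δ*TpKu70* (-1.25). Its call ended when any 1 of the 3 Δ*TP05746* libraries was left out (log2 fold changes of -1.26, -1.21 and -1.20), and under library totals its log2 fold change was -0.38. The other 5 bZIP genes stayed past the threshold under library totals.

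**Figure D2:**
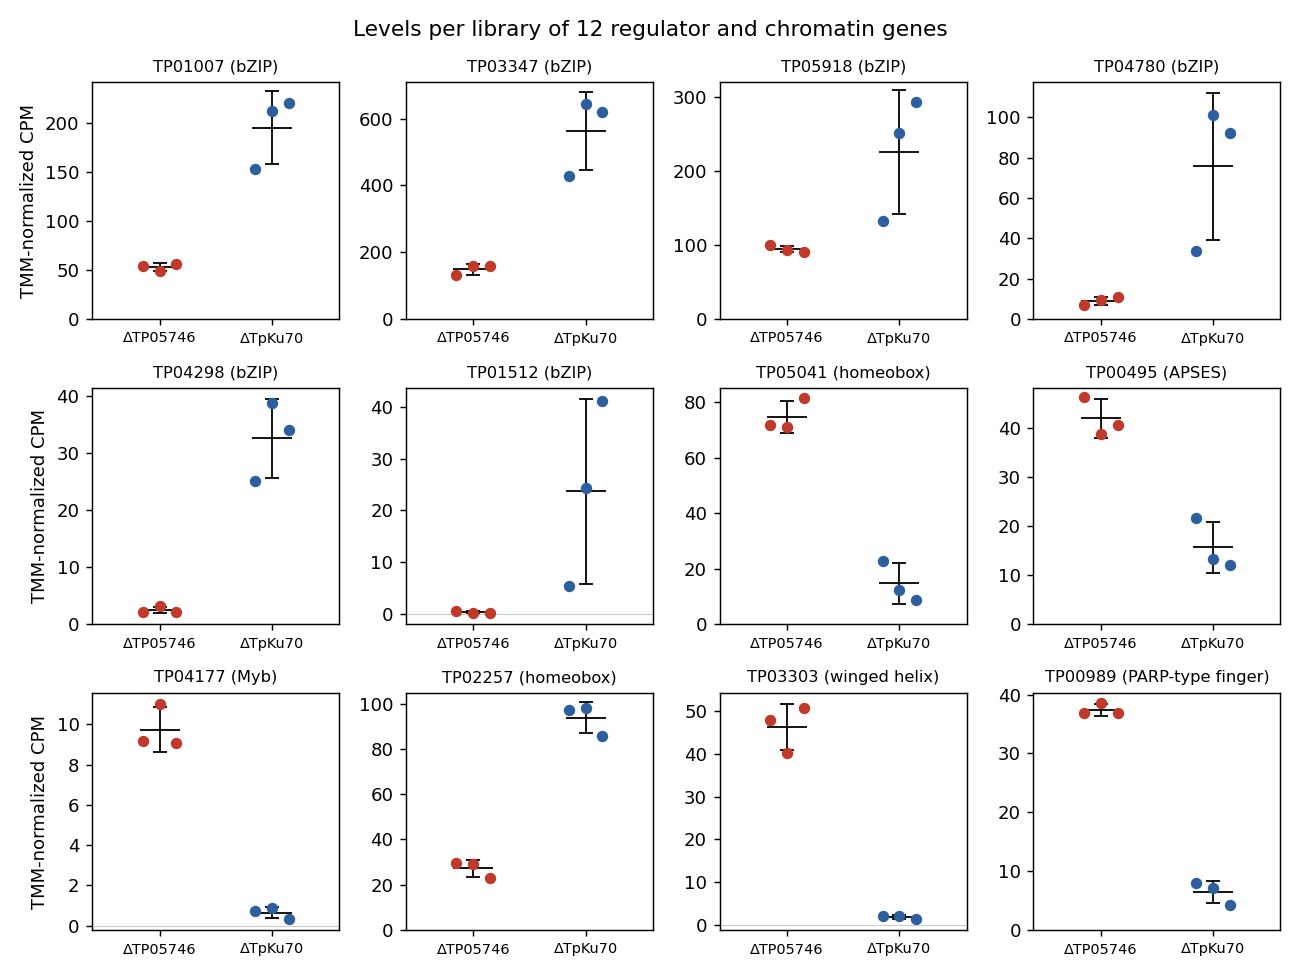
TMM-normalized CPM of 12 regulator and chromatin genes in each library, Δ*TP05746* in red on the left and Δ*TpKu70* in blue on the right of each panel, with replicates 1 to 3 from left to right; bars are the mean ± SD of 3 libraries, and each panel has its own linear scale. All 6 bZIP genes and the homeobox gene *TP02257* are lower in all 3 Δ*TP05746* libraries, and the other 5 genes are higher in all 3. In the 6 bZIP panels the lowest blue point is Δ*TpKu70* replicate 1.

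Among the 10 C2H2 genes, all listed and 9 tested, 2 were higher, 5 lower and 2 past the threshold in neither direction, with a median log2 fold change of -1.25. *TP01084* was the most reduced of those tested, with 74.7, 91.2 and 96.2 CPM in Δ*TP05746*, against 307, 409 and 628 CPM in Δ*TpKu70* (log2 fold change -2.36). *TP01286* had 53.4, 82.3 and 71.6 CPM in Δ*TP05746*, against 200, 251 and 281 CPM in Δ*TpKu70* (-1.82). Both are hypothetical proteins with no named relative, and in neither did a library of one strain reach the range of the other. *TP00175*, whose entry holds a C2H2 finger together with the fungal domain IPR007219, had 22.4, 25.2 and 27.4 CPM in Δ*TP05746*, against 78.9, 75.9 and 71.9 CPM in Δ*TpKu70* (-1.59). *TP02481* has the same pair of domains but is annotated as a protein phosphatase, and it averaged 35.4 ± 2.14 CPM in Δ*TP05746* and 84.1 ± 8.85 CPM in Δ*TpKu70* (SD, n = 3 each). *TP01483*, the remaining gene that was lower, averaged 116 ± 21.7 CPM in Δ*TP05746* and 281 ± 34.8 CPM in Δ*TpKu70*. Of these 5, only *TP01084* had a log2 fold change beyond 1 in size under library totals (-1.49).

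The C2H2 gene with the highest fold change, *TP03736*, had hardly any counts in the parent. It had 19, 23 and 23 counts in Δ*TP05746*, against 2, 0 and 0 counts in Δ*TpKu70*. Scaled by the TMM-adjusted library sizes, the ratio of the summed counts was 20.5, with a 95% exact counting interval of 5.46 to 173. The interval covers counting error only, and the fitted log2 fold change of 4.20 became 7.17 without Δ*TpKu70* replicate 1, which holds both counts. *TP01405*, at far higher levels, had 131, 144 and 164 CPM in Δ*TP05746*, against 72.2, 53.4 and 54.3 CPM in Δ*TpKu70* (1.29). Its counts hold decimals. So do those of the 2 genes past the threshold in neither direction, *TP01028* and *TP04083*. *TP01028* had 12.2, 15.5 and 16 CPM in Δ*TP05746*, against 7.75, 17.2 and 5.29 CPM in Δ*TpKu70* (0.53). *TP04083* had 30.7, 41.1 and 44.0 CPM in Δ*TP05746*, against 47.9, 24.5 and 28.7 CPM in Δ*TpKu70* (0.19), and for both of these genes the strains overlapped.

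The group with homeodomain, Myb, GATA or APSES domains was divided. Of 9 genes 8 were listed and 7 tested, of which 3 were higher, 2 lower and 2 past the threshold in neither direction. Under library totals 5 were higher past the threshold and 0 lower. *TP04177*, with a Myb domain, had 9.15, 11 and 9.06 CPM in Δ*TP05746*, against 0.739, 0.893 and 0.327 CPM in Δ*TpKu70* (log2 fold change 3.82). The parent values rest on 3, 3 and 1 counts. *TP05041*, a homeobox gene, had 71.7, 70.9 and 81.4 CPM in Δ*TP05746*, against 22.9, 12.5 and 8.82 CPM in Δ*TpKu70* (2.33). The homeobox is the DNA-binding fold of many developmental regulators in animals and of mating-type proteins in fungi. Another homeobox gene, *TP02257*, ran the other way, with 29.7, 28.9 and 23.0 CPM in Δ*TP05746*, against 97.3, 98.2 and 85.9 CPM in Δ*TpKu70* (-1.79). *TP04742* combines a homeobox with C2H2 fingers and had 58.3, 72.0 and 80.1 CPM in Δ*TP05746*, against 146, 127 and 151 CPM in Δ*TpKu70* (-1.01). Its fold change was the smallest of the 46 genes called, and its call ended in 7 of the 16 alternatives run. Among these were the fits without Δ*TP05746* replicate 1 (-0.86) or 2 (-1.0), without the filter on low values (-0.98) and under library totals (-0.18).

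Both genes with an APSES domain had all Δ*TP05746* libraries above all Δ*TpKu70* libraries, but only 1 was past the threshold. *TP00495* had 46.5, 38.9 and 40.8 CPM in Δ*TP05746*, against 21.7, 13.4 and 12.1 CPM in Δ*TpKu70* (1.41). *TP02163* had 52.4, 50.5 and 67.2 CPM in Δ*TP05746*, against 40.5, 43.4 and 33.8 CPM in Δ*TpKu70* (0.53), with decimals in its counts. The GATA gene *TP00492*, also with decimals, had 24.2, 31.2 and 31.9 CPM in Δ*TP05746*, against 16.6, 18.4 and 3.98 CPM in Δ*TpKu70* (1.16). It was not past the threshold, and Δ*TpKu70* replicate 3 lay far below the other 2 libraries of its strain. *TP04129*, annotated only as homeodomain-like, was listed with 2.06, 5.16 and 13.22 counts in Δ*TP05746*, against 1.73, 3.22 and 0 counts in Δ*TpKu70*, and was not tested.

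Of the 5 uncharacterised genes with a winged helix, a fold found in DNA-binding proteins and also in proteins that do not bind DNA, 4 were tested and 3 were higher. *TP03303* had the highest fitted fold change of the 54 genes, at a log2 of 4.66. It had 47.8, 40.3 and 50.7 CPM in Δ*TP05746*, against 1.97, 2.08 and 1.31 CPM in Δ*TpKu70*, where the counts were 8, 7 and 4. *TP02020* had 43.1, 37.5 and 37.3 CPM in Δ*TP05746*, against 18.0, 4.17 and 1.96 CPM in Δ*TpKu70* (2.26). Here Δ*TpKu70* replicate 1 stood apart from the other 2 libraries of its strain, and the log2 fold change was 3.59 without it. The call ended when any 1 of the other 5 libraries was left out, with values down to 1.76. *TP04078* was even within each strain, with 49.3, 50.1 and 48.9 CPM in Δ*TP05746*, against 21.9, 19.0 and 20.3 CPM in Δ*TpKu70* (1.27). *TP01991*, the most abundant gene of this group by FPKM (137 in Δ*TP05746*, 60.6 in Δ*TpKu70*), had 212, 183 and 243 CPM in Δ*TP05746*, against 123, 177 and 175 CPM in Δ*TpKu70* (0.42). It was not past the threshold, and its counts hold decimals. *TP01877*, which was not tested, had 2, 1 and 2 counts in Δ*TP05746*, against 2, 6 and 10 counts in Δ*TpKu70*.

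Of the 7 genes of chromatin and general transcription, 5 were listed, and the 4 tested were all higher past the threshold, with a median log2 fold change of 2.12. *TP00989* carries a PARP-type zinc finger, a fold that recognises DNA breaks in the poly(ADP-ribose) polymerases of animals. It had 36.8, 38.5 and 36.8 CPM in Δ*TP05746*, against 7.89, 7.14 and 4.25 CPM in Δ*TpKu70* (log2 fold change 2.53). *TP02125* carries a MIZ-type finger, found in SUMO ligases, and had 28.2, 30.1 and 27.7 CPM in Δ*TP05746*, against 15.3, 7.14 and 7.19 CPM in Δ*TpKu70* (1.53). *TP01095*, annotated as subunit C11 of RNA polymerase III, the enzyme that makes tRNA and 5S rRNA, had few counts, with 14, 7 and 10 in Δ*TP05746*, against 1, 1 and 0 in Δ*TpKu70*. The ratio of their sums, scaled by the TMM-adjusted library sizes, was 9.79, with a 95% exact counting interval of 2.49 to 84.5.

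*TP02663*, annotated as an RNA annealing protein with an HMG-I/Y DNA-binding domain, was the most abundant of this group, with a mean FPKM of 186 in Δ*TP05746* and 36.5 in Δ*TpKu70*. It had 105, 138 and 121 CPM in Δ*TP05746*, against 70.1, 25 and 15 CPM in Δ*TpKu70* (1.72), with decimals in its counts. Its call ended when any 1 library other than Δ*TpKu70* replicate 1 was left out, with values down to 1.30, and without that replicate the log2 fold change was 2.53. *TP04567*, annotated as a transcriptional coactivator of RNA polymerase II, was not listed, and so read as 0, in Δ*TP05746* replicate 1 and in any Δ*TpKu70* library, and had 14.31 and 28.68 counts in Δ*TP05746* replicates 2 and 3. Its mean in Δ*TP05746* was at least 2.95-fold higher against a floor of 3 counts per library, but the strains overlapped at 0 and it was not tested.

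Over the 5 groups of regulators and chromatin genes together, that is the C2H2, bZIP, homeodomain and related, winged helix and chromatin genes, 34 of 37 were listed and 30 tested. Of these 30, 12 were higher, 13 lower and 5 past the threshold in neither direction. The lower ones were the 6 bZIP genes, 5 C2H2 genes and the 2 homeobox genes *TP02257* and *TP04742*. Under library totals 16 of the 30 were higher past the threshold and 6 lower.

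The 13 genes whose annotation names an enzyme or another known protein had 11 listed and tested, with 4 higher, 5 lower and 2 past the threshold in neither direction. Under library totals 5 were higher past the threshold and 1 lower. The 2 genes annotated as O-methyltransferases, enzymes that often act in secondary metabolism, were both higher. *TP04171* had 39.6, 47.5 and 36.8 CPM in Δ*TP05746*, against 3.20, 8.03 and 7.19 CPM in Δ*TpKu70* (log2 fold change 2.76). *TP04213* had 345, 325 and 361 CPM in Δ*TP05746*, against 185, 56.5 and 26.5 CPM in Δ*TpKu70* (1.94). In *TP04213* replicate 1 of Δ*TpKu70* was far above the other 2 libraries of its strain, the log2 fold change was 2.98 without it, and the call ended when any 1 of the other 5 libraries was left out, with values down to 1.46. *TP02113*, one of 3 genes with a DHHC finger, the fold of protein palmitoyltransferases, had 73.6, 28.8 and 22.9 CPM in Δ*TP05746*, against 1.77, 15.5 and 5.6 CPM in Δ*TpKu70* (2.47). Its counts hold decimals, and its call ended without any 1 of the Δ*TP05746* libraries (1.81 without replicate 1) or without Δ*TpKu70* replicate 3 (2.22). The fourth higher gene was *TP01780*, a RecQ type DNA helicase that averaged 81.1 ± 13.5 CPM in Δ*TP05746* and 27.0 ± 0.927 CPM in Δ*TpKu70*. The other RecQ helicase gene, *TP01456*, has decimals in its counts and was not past the threshold, with 5.08, 16.6 and 10.8 CPM in Δ*TP05746*, against 4.0, 6.47 and 0.523 CPM in Δ*TpKu70* (1.52).

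Of the genes in this group that were lower, *TP05202*, a methionine aminopeptidase, which removes the first methionine of new proteins, had 128, 134 and 136 CPM in Δ*TP05746*, against 449, 649 and 689 CPM in Δ*TpKu70* (-2.17). *TP02877*, a cyanate hydratase, which breaks down cyanate, had 239, 98.2 and 107 CPM in Δ*TP05746*, against 499, 445 and 597 CPM in Δ*TpKu70* (-1.80). Its Δ*TP05746* replicate 1 was above both others of its strain, and it ranked 1 by mean FPKM among the 61 listed genes in both strains, at 412 in Δ*TP05746* and 890 in Δ*TpKu70*. *TP02951*, a tRNA-modifying enzyme, had 4.29, 6.13 and 4.71 CPM in Δ*TP05746*, against 11.2, 17.0 and 13.1 CPM in Δ*TpKu70* (-1.43). Its call ended in 5 of the 16 alternatives run, among them without Δ*TP05746* replicate 3 (-1.36) and under library totals (-0.59). The other 2 were *TP00764*, a vacuolar segregation protein, and *TP05391*, a palmitoyltransferase. *TP00764* averaged 49.3 ± 4.76 CPM in Δ*TP05746* and 129 ± 38.4 CPM in Δ*TpKu70*. The log2 fold change of *TP00764* was -1.38, or -0.52 under library totals, and its call ended in 4 of the 16 alternatives run. *TP05391* averaged 32.6 ± 7.24 CPM in Δ*TP05746* and 73.8 ± 17.9 CPM in Δ*TpKu70*. Its call ended in 6 of the 16 alternatives run, among them without Δ*TP05746* replicate 2 or 3 (-1.04 at the smallest). The third DHHC gene, *TP02883*, was just short of the threshold at a log2 fold change of -0.97.

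Genes related to transposons were scarce in the files, with 3 of 6 listed. *TP03289*, annotated as a Tc1 transposase, had 24.45, 25.09 and 19.68 counts in Δ*TP05746*, against 2.53, 0 and 0 counts in Δ*TpKu70*. The ratio of its rounded sums, scaled by the TMM-adjusted library sizes, was 14.5, with a 95% exact counting interval of 4.77 to 72.2. Copies of such elements can share reads. The 2 genes annotated as pogo elements did not move alike. *TP03358* had 6.16, 7.53 and 4.53 CPM in Δ*TP05746*, against 2.46, 0.893 and 2.61 CPM in Δ*TpKu70* (log2 fold change 1.59), a call that ended without Δ*TpKu70* replicate 2 (1.22) or 3 (1.76). *TP02991* had 2.80, 1.75 and 0.906 CPM in Δ*TP05746*, against 2.46, 8.93 and 6.53 CPM in Δ*TpKu70* (-1.69). The strains overlapped in *TP02991*, which was past the threshold only without Δ*TpKu70* replicate 1 (-2.14), with DESeq2 (-1.74) and with genes that have decimals left out (-1.71), of the alternatives run.

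Of the 15 genes with the fungal transcription factor domain alone, 13 were listed and 10 tested, and all 10 were lower past the threshold, with a median log2 fold change of -2.46. Under library totals 7 of the 10 were lower past the threshold. The lowest was *TP00900*, with 3.17, 1.93 and 1.45 CPM in Δ*TP05746*, against 46.1, 134 and 123 CPM in Δ*TpKu70* (-5.51). The next were *TP03275* and *TP03276*, which have consecutive numbers. *TP03275* had 2.99, 2.1 and 1.45 CPM in Δ*TP05746*, against 80.1, 73.5 and 96.7 CPM in Δ*TpKu70* (-5.24). *TP03276* had 13.6, 12.6 and 12.0 CPM in Δ*TP05746*, against 164, 151 and 180 CPM in Δ*TpKu70* (-3.69). All 3 libraries of Δ*TpKu70* were close to each other in both genes of the pair, replicate 1 included. *TP01882*, annotated as a C6 factor, had 9.15, 8.58 and 13.8 CPM in Δ*TP05746*, against 39.2, 49.7 and 48.0 CPM in Δ*TpKu70* (-2.12). *TP04527* and *TP01130*, both with decimals in their counts, had log2 fold changes of -2.43 and -2.48 and no overlap between the strains.

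The smallest changes of this group were those of *TP05044* and *TP03466*. *TP05044* had 25, 28.7 and 23.4 CPM in Δ*TP05746*, against 76.1, 68.1 and 63.7 CPM in Δ*TpKu70* (-1.43, and -0.62 under library totals). *TP03466* had 2.99, 4.03 and 3.08 CPM in Δ*TP05746*, against 10.6, 16.1 and 6.86 CPM in Δ*TpKu70* (-1.72), and its call ended without Δ*TP05746* replicate 1 (-1.61) or 3 (-1.63). The calls of 2 more genes ended when single libraries were left out. *TP05067* had 18, 31 and 16 counts in Δ*TP05746*, against 21, 128 and 128 counts in Δ*TpKu70*, so that the strains overlapped through Δ*TpKu70* replicate 1. Its log2 fold change of -2.85 became -3.40 without that replicate, and its call ended without any 1 of the other 5 libraries. In total 8 of the 16 alternatives run ended the call of *TP05067*. *TP03206*, with 2.80, 3.85 and 2.90 CPM in Δ*TP05746*, against 6.41, 15.2 and 31.0 CPM in Δ*TpKu70* (-2.44), lost its call without Δ*TP05746* replicate 1 or 3. *TP00987* and *TP04614* were not listed, and so read as 0, in all libraries but Δ*TP05746* replicate 3, where they had 2.71 and 6.60 counts. *TP05089* had 2, 2 and 1 counts in Δ*TP05746*, against 9, 7 and 9 counts in Δ*TpKu70*, and was not tested either. Its neighbour by number, *TP05090*, is a zinc cluster gene with a log2 fold change of -5.75.

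The zinc cluster genes of the same rows, set beside them for scale, were 94, with 73 tested, of which 8 were higher, 53 lower and 12 past the threshold in neither direction, at a median log2 fold change of -1.64. They were chosen from the same comparison, and whether the lists differ was not tested.

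**Figure D3:**
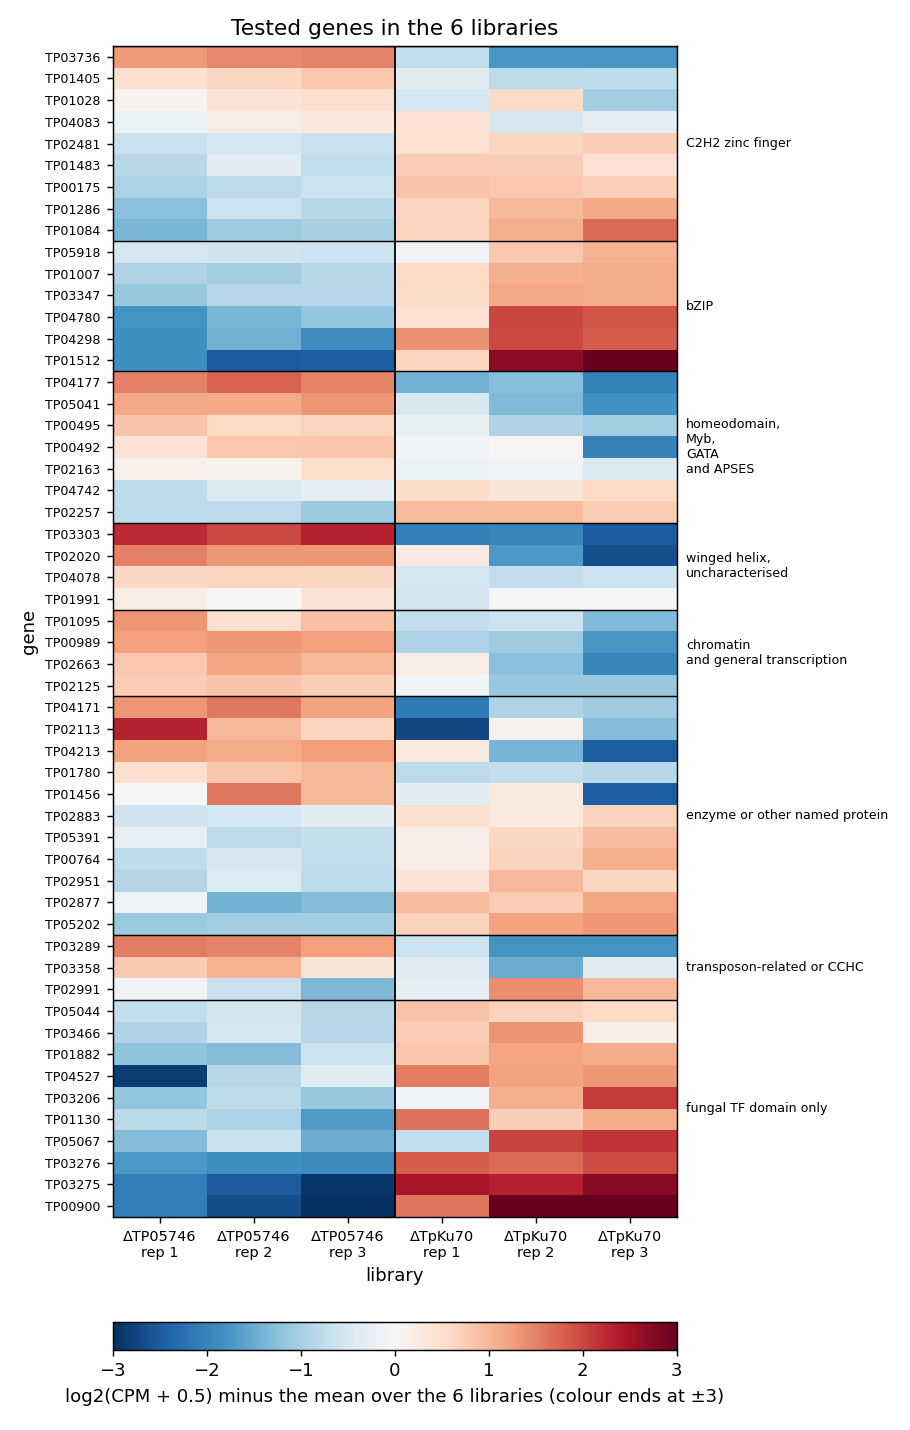
The 54 genes tested in the 6 libraries, Δ*TP05746* on the left and Δ*TpKu70* on the right, coloured by log2(CPM + 0.5) minus the gene's mean over the 6 libraries (red above, blue below, colours end at 3 in size), grouped as in the text. The column of Δ*TpKu70* replicate 1 is paler than the other 2 of its strain in many rows, among them all 6 bZIP genes.

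Library by library, all 3 Δ*TP05746* values were above all 3 Δ*TpKu70* values in 21 of the 61 listed genes and below them in 31, and the strains overlapped in 9. Over all 11632 listed genes those shares were 25.4% above and 25.0% below, or 50.5% in either direction. Nothing is read from the difference, since the 61 were chosen on these values. Δ*TpKu70* replicate 1 lay between the Δ*TP05746* libraries and both other Δ*TpKu70* libraries in 27 of the 54 tested genes, or 50%, and in 37.1% of all tested genes. Among the tested genes of all rows at hand, which were chosen in the same way, the share was 58.1%. Without it 18 genes were higher and 29 lower. The median coefficient of variation over the 54 genes was 14.2% in Δ*TP05746* and 31% in Δ*TpKu70*, and 15% between Δ*TpKu70* replicates 2 and 3.

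The 61 genes took a small and similar part of the unscaled counts, 0.363% to 0.384% in Δ*TP05746* and 0.387% to 0.404% in Δ*TpKu70*. With TMM scaling their summed levels were not similar. They were 2777, 2777 and 2893 CPM in Δ*TP05746*, against 4612, 5412 and 5914 CPM in Δ*TpKu70*. By mean FPKM the order of the genes differed between the strains. After the cyanate hydratase gene, the highest in Δ*TP05746* were *TP04213* (294 in Δ*TP05746*, 50.1 in Δ*TpKu70*), *TP02663* (186 in Δ*TP05746*, 36.5 in Δ*TpKu70*) and *TP01991* (137 in Δ*TP05746*, 60.6 in Δ*TpKu70*). In Δ*TpKu70*, the genes after it were *TP05202* (91.5 in Δ*TP05746*, 243 in Δ*TpKu70*) and the bZIP gene *TP03347* (77.1 in Δ*TP05746*, 173 in Δ*TpKu70*). The homeobox gene *TP05041* was at rank 13 in Δ*TP05746* and 35 in Δ*TpKu70*, and the PARP-type finger gene *TP00989* at rank 11 in Δ*TP05746* and 36 in Δ*TpKu70*.

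The study's stated rule asks for a log2 ratio of FPKM of 1 or more in size. Some of the genes miss it on the mean of the deposited FPKM. The 3 with the smallest change by the ratio of mean FPKM were *TP02883* (80.7 in Δ*TP05746*, 95.2 in Δ*TpKu70*), *TP04742* (22.5 in Δ*TP05746*, 27.2 in Δ*TpKu70*) and *TP05391* (21.3 in Δ*TP05746*, 28.7 in Δ*TpKu70*), with log2 ratios of -0.24, -0.28 and -0.43. Of the 58 genes above 0 in both strains, 12 had a log2 ratio under 1 in size on that scale and so fall short of that rule, and 9 of those 12 were past the threshold on TMM-scaled counts. No gene just outside the study's own threshold can be given, since only the genes it called carry a transcription factor entry in the rows at hand. Of the 41 called genes with a tested neighbour by gene number, 17 had a neighbour called in the same direction (41.5%), against 1312 of 2942 called genes (44.6%) over all genes.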

How the data were processed

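RNA of *T. pinophilus* was sequenced from 3 Δ*TP05746* and 3 Δ*TpKu70* libraries, grouped by the sample labels. The authors' expected counts came from RSEM after mapping to the genome of strain 1-95 and were deposited without scaling, and the same files hold the authors' FPKM, which RSEM divides by gene length and by depth. Tools in the processing notes of the submitters are RSEM 1.2.12, Bowtie2 2.1.0, BWA 0.7.10-r789 and DESeq2. Each file lists genes above 0, and an unlisted gene was read as 0. Of the 1998 genes in the study's rows at hand, 217 are listed in no file, so an unlisted gene need not be one without transcript.

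Counts were rounded, and the 8522 genes with 3 or more libraries at an FPKM of 1 or more were fitted with edgeR 4.0.16 (TMM factors, quasi-likelihood test, two-sided, Benjamini-Hochberg adjustment over all of them, R 4.3.3). The threshold was an adjusted p of 0.05 or less together with a log2 fold change of 1 or more in size. The fit was also run on simulated counts as a check of the code. Far fewer genes changed in them than were called here, so that run does not test the scaling of these data. CPM values are the unrounded counts of each listed gene, scaled by the library sizes over the tested genes and the TMM factors. Counting intervals of 95% are exact (Clopper-Pearson, SciPy 1.17.1). They and their ratios are of rounded counts summed per strain and scaled by the TMM-adjusted library sizes. Tables and figures were made in Python 3.11.15 with pandas 2.3.3 and matplotlib 3.10.9. Library totals of 4091718 to 4696455 set the precision, and intervals and floors cover counting error only.

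The genes, the groups and the lists were chosen with earlier results of these data known. The genes named by rule are, per group, the 3 highest and 3 lowest log2 fold changes, and every listed gene of groups of up to 6. Other genes were named after their values were seen. The 16 alternatives were DESeq2 1.42.0, limma 3.58.1 on log2(FPKM + 1) or log2(FPKM + 0.1), median-ratio factors, library totals, an FPKM filter of 5 or none, genes with decimals left out, the ratio of mean FPKM as the fold, the replicate number as a block, and each library left out. The table at hand held 1998 rows, so genes beyond them were not analysed here. The reference table given is of another strain and matched 0 of the 71 gene IDs, so no coordinates or sequences are reported.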

Additional observations from a re-analysis of the deposited data

How the results depend on the processing

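Of the genes named by the rule on fold change and group size given above, 41 were tested. None of these 41 turned its direction under any of the 16 alternatives that could test it. The 18 higher genes became 9 without each of the 3 Δ*TP05746* libraries, where 5 of the 18 were no longer tested because the filter asks for 3 libraries and 4 were tested but not past the threshold. The range with single libraries left out was 9 to 18 for genes higher and 23 to 29 for genes lower. The 28 lower genes became 14 under library totals, and 17 with limma on log2(FPKM + 1) and on log2(FPKM + 0.1), scalings under which the median of all genes was 0.85, 0.69 and 0.79. Over all genes, 3290 were then higher and 1059 lower under library totals, against 1550 and 1749 with TMM. Single Δ*TP05746* libraries left out gave 951 to 965 genes higher over all genes. Of the 46 genes called, 25 kept their call in every alternative that tested them, and 16 were past the threshold in all 16 alternatives. The rest of the 25 were not tested by at least 1 alternative. Where single libraries are named above as ending a call, other alternatives could end it too.

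The replicate numbers did not pair the libraries, with correlations of -0.0783, -0.0379 and 0.0111 between same-numbered libraries. With the replicate block 16 genes were higher and 27 lower. Genes with only a few counts in 1 strain, such as *TP03736*, *TP03289* and *TP01095*, are limited by depth, and the 7 listed genes below the filter were not tested. What made single libraries stand apart was not tested.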
